A study of Mus musculus with 6 samples.

Results

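Cadherins and protocadherins were examined in cancer-associated fibroblasts (CAFs) of mouse mammary tumors. The genes were taken by name, as every protein-coding gene of the count table whose symbol is Cdh followed by a number or Pcdh followed by letters and numbers, which gave 93 of 27179 genes. Among them were 5 type I classical cadherins, 13 type II classical cadherins, 5 other cadherins, 12 non-clustered protocadherins and the clustered protocadherins, with 14 alpha, 22 beta and 22 gamma genes.

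Bulk RNA-seq was performed on GFP+ fibroblasts sorted from 3 mammary tumors of raGFP-Wnt1 mice. All mice carried a Pdgfra-GFP knock-in reporter on 1 allele, which labels fibroblast nuclei, and the MMTV-Wnt1 transgene, in which a mammary tumor virus promoter drives Wnt1 in the mammary epithelium. From each tumor a CD34 negative and a CD34 positive fraction were taken, so that 6 libraries fell into 2 groups of 3. The age of the mice is not given in the sources used here. Libraries are named by group and tumor (positive library 1 to negative library 3), and values are CPM, counts scaled to the size and composition of the library, or RPKM where levels of different genes are compared per kilobase of gene length. Sums of cell type markers were scaled to library size alone.

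Cadherins are calcium-dependent adhesion molecules that bind the same cadherin on a neighbouring cell, and classical cadherins hold on to the actin cytoskeleton through catenins. Type I members such as E-cadherin define epithelia, and the type II member cadherin-11 is the characteristic cadherin of fibroblasts and other mesenchymal cells. Clustered protocadherins are made in combinations that give cells, best known in neurons, a surface identity, and each isoform of the alpha and gamma groups joins its own first exon to constant exons shared by the group.

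The libraries held between 16238059 and 86609267 counts, and between 64 and 84 of the 93 genes had counts in a library. Cd34, the gene of the sorting marker, lay between 562 and 1604 CPM in the positive libraries and between 41.9 and 102 CPM in the negative libraries, and Pdgfra between 302 and 505 CPM in all 6. Negative library 3 stood apart, with counts for the fewest genes (14314). Markers of other cells were present at low summed levels beside the 7 fibroblast markers, which summed to between 40964 and 55330 CPM. The collagen genes Col1a1 and Col1a2 took most of that sum, so it does not measure the share of other cells. In limma-voom with the tumor as a block, 1 of the 7 was higher and 3 were lower in CD34 negative CAFs. The positive and the negative libraries spanned 18.2 to 146 and 56.1 to 164 CPM for 10 epithelial markers, 56.4 to 129 and 16.6 to 31.1 CPM for 8 endothelial markers, 85.6 to 187 and 199 to 237 CPM for 6 pericyte markers, and 20.3 to 34.1 and 27.0 to 31.9 CPM for 8 Schwann cell markers. A fold change above 0 was found for 9 of the 10 epithelial markers, and 0 were called with the tumor as a block in limma-voom. Of the endothelial markers Tek alone measured 48.8 to 116 CPM in the positive and 5.44 to 13.4 CPM in the negative libraries, and 4 of the 7 tested had a fold change above 0. The 6 pericyte markers were split, as 4 had a fold change above 0. With the tumor as a block limma-voom called 3 of them higher and 2 lower in CD34 negative CAFs. The positive and the negative libraries spanned 7.57 to 19.7 and 13.1 to 17.3 CPM for 8 immune markers and 42.2 to 282 and 12.5 to 62.9 CPM for 6 cycling markers. In bulk samples fewer cells of a type and less RNA per cell cannot be told apart.

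A single gene, Cdh11, carried much of the cadherin RNA of these fibroblasts. Its mean level over the 6 libraries was 188 RPKM, followed by Pcdhgc3 at 30.3, Pcdh18 at 11.3, Cdh13 at 11.02, Pcdh19 at 8.75, Pcdh7 at 8.50 and Pcdhb17 at 7.70 RPKM. No other member exceeded a mean of 5 RPKM, and 41 of the 93 reached a mean of 1 RPKM. The libraries of Pcdh18, Cdh13, Pcdh19, Pcdh7 and Pcdhb17 overlapped in level, so their order is not larger than the spread between libraries. All members together made up 0.121% to 0.205% of the counts of a library. Cdh11 alone took 51.7%, 43.7% and 36.1% of these member counts in positive libraries 1, 2 and 3, and 58.0%, 54.9% and 56.9% in negative libraries 1, 2 and 3. Its share was thus higher in each negative library than in any positive library. The 95% Wilson intervals ran from 35.6% to 36.6% at the lowest share and from 57.7% to 58.3% at the highest, and cover counting error only.

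**Figure D1:**
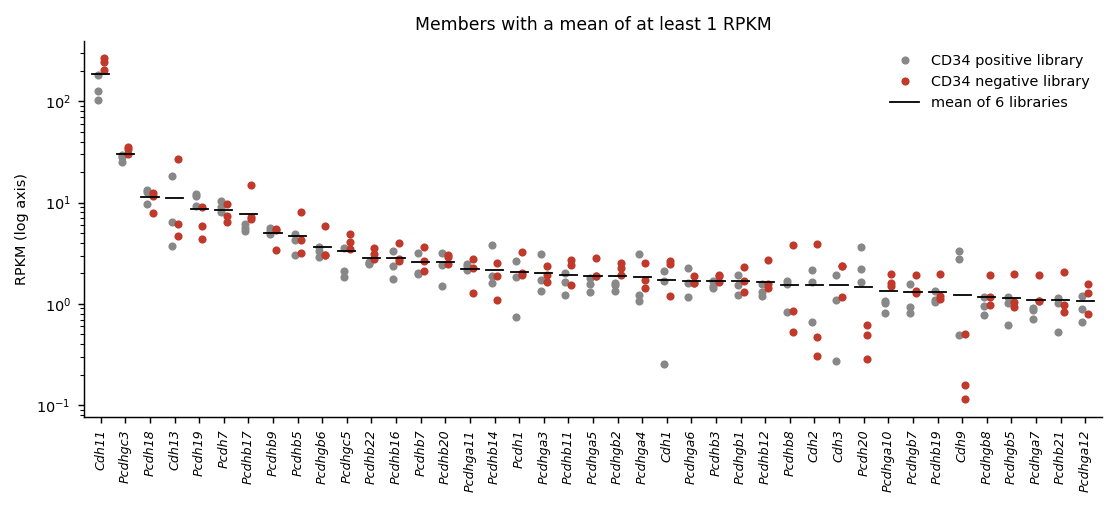
Level of the 41 members with a mean of at least 1 RPKM, on a log axis, with a gray point for each CD34 positive library, a red point for each CD34 negative library and a line for the mean of all 6. Cdh11 stands at 188 RPKM and Pcdhgc3 at 30.3, and most of the others lie below 5.

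Expression in CD34 negative and CD34 positive CAFs was then compared with limma-voom over the 14855 genes that passed a filter on low counts, 66 of them members. Without a term for the tumor, no member passed an adjusted p of 0.05, where 0.121% of all genes did. The paper reports far more genes as higher in CD34 negative CAFs, so its own calls for members may differ. In edgeR 0 members were among the 9 genes called, and in DESeq2 2 members were among the 660 genes called. In limma-voom 8 members had an unadjusted p under 0.05, 5 higher and 3 lower in CD34 negative CAFs. This is about the share of all genes, 14.3%. With the tumor as a block, which takes out the differences between the 3 tumors, 4 members passed in limma-voom. Cdh11 was higher in CD34 negative CAFs, where 4.32% of all genes were called in that direction, and Pcdh20, Pcdh19 and Cdh9 were lower, where 4.25% were. The 1 and 3 calls among 66 members lie near these background shares.

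Fold changes leaned toward CD34 negative CAFs. They were above 0 for 46 of the 66 members, with a median of 0.28 on the log2 scale, against 7081 of 14855 genes and a median of -0.03 overall. Without negative library 3 the fold change was above 0 for 48 of 71 members that then passed the filter, with a median of 0.24 against 0.02 over all genes. The ratio had the same sign in all 3 tumors for 27 members that were higher, against 22.8% of all genes, and for 9 that were lower, against 23.4%. In 12 members every negative library was above every positive library (10.4% of all genes) and in 2 every negative library was below (10.0% of all genes). The lean came mainly from the clustered protocadherins, with 19 of 22 gamma and 15 of 21 beta genes above 0, whereas 3 of 8 non-clustered protocadherins were. All rows come from the same libraries and gamma rows share exons, so these signs are not separate observations. Read as sums, neither the gamma nor the beta cluster passed in limma-voom, and the beta difference rested on negative library 3, as given below.

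**Figure D2:**
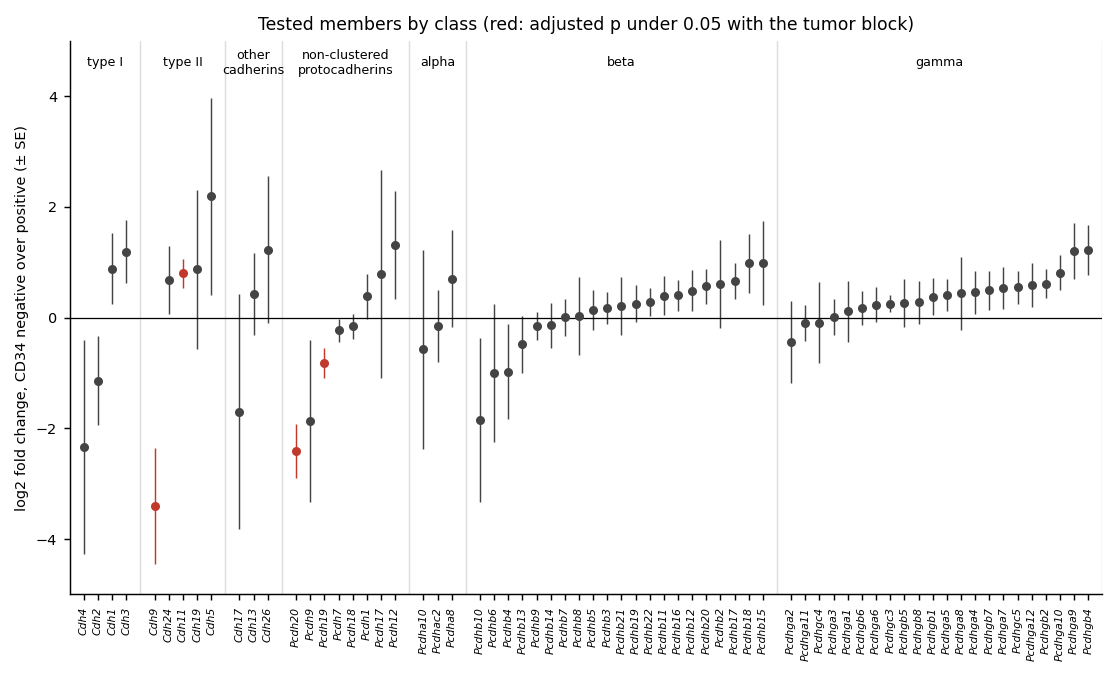
Log2 fold change of CD34 negative over CD34 positive CAFs for the 66 tested members, ordered within each class, with bars for the standard error of limma-voom without a tumor term (n = 3 per group). Red marks Cdh9, Cdh11, Pcdh20 and Pcdh19, which passed an adjusted p of 0.05 when the tumor was a block, and 19 of 22 gamma protocadherins lie above 0.

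Among type II cadherins, Cdh11, which binds beta-catenin and joins fibroblasts to each other, measured 776, 537 and 433 CPM in positive libraries 1, 2 and 3. It measured 1021, 852 and 1136 CPM in negative libraries 1, 2 and 3. Each negative library was above every positive library, and the ratio within tumors was 0.40, 0.67 and 1.39 on the log2 scale for tumors 1, 2 and 3. The log2 fold change was 0.80 ± 0.26 (SE, n = 3 per group; limma-voom adjusted p = 0.222). With the tumor as a block it was 0.82 (limma-voom adjusted p = 0.0243), and the block without tumor 1, 2 or 3 gave limma-voom adjusted p of 0.000487, 0.00548 and 0.0322. Without tumor 3 its size was smaller, 0.52 with the block and 0.48 without it. With the block in edgeR the adjusted p was 0.0961. Cdh11 lies at chromosome 8, 102632095 to 102785493 (GRCm38.p6), and no other gene of the table overlaps it.

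Pcdh20, a non-clustered protocadherin, was called in more fits than any other member. It measured 8.599, 11.6 and 18.9 CPM in positive libraries 1, 2 and 3 and 3.24, 1.51 and 2.56 CPM in negative libraries 1, 2 and 3. The lowest positive library was well above the highest negative library. A log2 fold change of -2.41 ± 0.48 (SE, n = 3 per group; limma-voom adjusted p = 0.0858) resulted. It passed in limma-voom with the block (adjusted p = 0.0104), in edgeR with the block (adjusted p = 0.0354), and in DESeq2 without it (adjusted p = 4.47e-05). The block without tumor 1, 2 or 3 also called it, with limma-voom adjusted p of 0.0121, 0.0096 and 0.00457.

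Pcdh19, an X-linked delta protocadherin that can act together with N-cadherin, measured 96.1, 126 and 119 CPM in positive libraries 1, 2 and 3. In negative libraries 1, 2 and 3 it measured 60.9, 93.2 and 45.5 CPM. The groups came close but did not overlap, since negative library 2 lay just under positive library 1. Its log2 fold change was -0.82 ± 0.27 (SE, n = 3 per group; limma-voom adjusted p = 0.224, and 0.0272 with the block). The edgeR fit with the block gave an adjusted p of 0.0812.

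Cdh9, a type II cadherin best known from neurons, was low throughout. It measured 1.42, 8.04 and 9.66 CPM in positive libraries 1, 2 and 3 and 0.463, 1.46 and 0.330 CPM in negative libraries 1, 2 and 3. Positive library 1 was just below negative library 2, so the groups overlapped, although the negative library was the lower one in each tumor. Its log2 fold change was -3.41 ± 1.05 (SE, n = 3 per group; limma-voom adjusted p = 0.205, and 0.0364 with the block). Without tumor 1 or tumor 2 the block no longer called it (limma-voom adjusted p = 0.121 and 0.196), and neither did edgeR with the block (adjusted p = 0.0961).

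**Figure D3:**
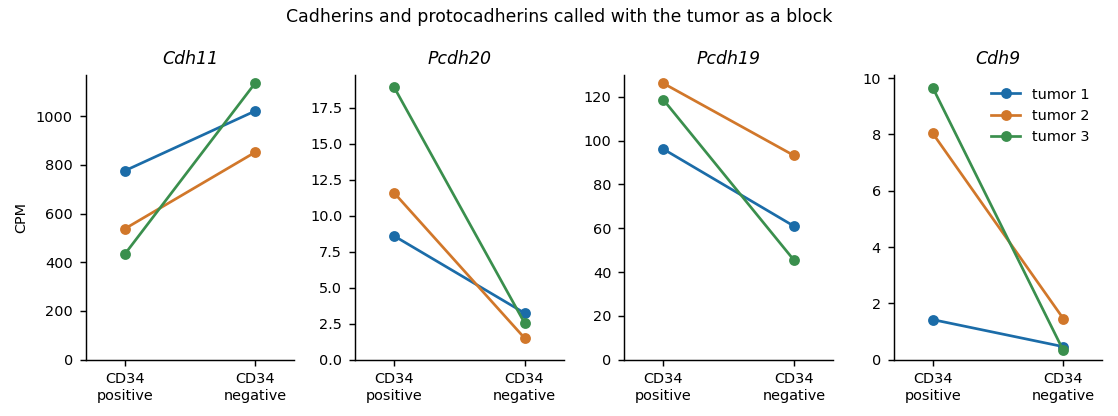
CPM of Cdh11, Pcdh20, Pcdh19 and Cdh9 in the 6 libraries, each on its own axis from 0, with a line joining the CD34 positive and the CD34 negative library of a tumor. All 3 lines go up for Cdh11, to at most 1136 CPM, and all 3 go down for the other genes.

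Promoter sequences were at hand for the 3 called members that were lower in CD34 negative CAFs and not for Cdh11. They are shown from 250 bases before to 50 bases after the annotated start as listed by RefSeq (GRCm38.p6). The 3 genes were picked because the block called them lower, so their shared direction is not a separate result. For Cdh9 and Pcdh19 the start used there lies inside the outer bounds of the gene. They are written 5′ to 3′ on the strand of the gene, and capitals mark CCAAT, or its reverse complement ATTGG, the letters of the CCAAT box.
Pcdh20, chr14:88471347-88471646, minus strand: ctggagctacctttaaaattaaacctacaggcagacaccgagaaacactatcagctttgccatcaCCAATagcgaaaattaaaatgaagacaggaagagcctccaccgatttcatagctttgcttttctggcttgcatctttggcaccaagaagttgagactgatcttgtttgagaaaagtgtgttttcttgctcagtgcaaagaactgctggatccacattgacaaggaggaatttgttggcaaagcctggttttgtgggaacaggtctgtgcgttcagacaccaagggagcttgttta
Pcdh19, chrX:133688944-133689243, minus strand: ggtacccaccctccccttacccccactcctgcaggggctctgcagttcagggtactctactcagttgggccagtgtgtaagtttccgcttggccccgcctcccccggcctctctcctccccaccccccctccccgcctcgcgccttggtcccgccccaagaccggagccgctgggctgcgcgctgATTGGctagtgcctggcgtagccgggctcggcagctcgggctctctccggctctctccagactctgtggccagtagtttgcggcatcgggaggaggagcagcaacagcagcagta
Cdh9, chr15:16728665-16728964, plus strand: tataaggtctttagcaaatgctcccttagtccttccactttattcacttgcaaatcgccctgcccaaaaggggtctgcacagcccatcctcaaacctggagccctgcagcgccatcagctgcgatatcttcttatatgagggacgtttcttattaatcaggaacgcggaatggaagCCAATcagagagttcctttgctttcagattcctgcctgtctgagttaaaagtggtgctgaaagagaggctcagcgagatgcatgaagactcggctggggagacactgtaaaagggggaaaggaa
Each of the 3 windows held 1 CCAAT on either strand, and 37.4% of the 32851 promoters of the same length listed held at least 1. The E-box CAGGTG and the TATA box TATAAA were in none of the 3 and in 20.2% and 13.6% of all promoters on either strand. The GC box GGGCGG was in that of Pcdh19 and in 35.7% of all, and the Pcdh19 window also held the most CpG dinucleotides, 18 against 8 in Cdh9, 4 in Pcdh20 and a median of 7 over all. None of the 4 motifs contains another, and a match of letters does not show that a factor bound there.

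The other abundant non-clustered protocadherins did not differ beyond the spread of the libraries. Pcdh18, a delta protocadherin, measured 68.8, 50.7 and 65.1 CPM in the positive and 63.7, 40.8 and 60.03 CPM in the negative libraries 1, 2 and 3 (log2 fold change -0.16 ± 0.23). Pcdh7, another delta protocadherin, measured 94.6, 73.5 and 82.3 CPM in the positive and 88.5, 58.3 and 66.7 CPM in the negative libraries (-0.23 ± 0.21). Both followed the tumor, with library 1 highest and library 2 lowest in each group. Summed over all 12 genes of the class, the level was 283 ± 14.4 CPM in the positive and 214 ± 20.9 CPM in the negative group (SD, n = 3), and Pcdh19 made up much of that gap.

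The epithelial cadherins were low and moved with the tumor. Cdh1, which encodes E-cadherin, measured 9.34, 7.49 and 1.13 CPM in positive libraries 1, 2 and 3 and 11.8, 10.8 and 5.25 CPM in negative libraries 1, 2 and 3. Cdh3, which encodes P-cadherin, measured 7.67, 4.33 and 1.09 CPM in the positive and 9.52, 9.41 and 4.65 CPM in the negative libraries. For both genes tumor 3 was lowest in each group and the groups overlapped, and neither passed (limma-voom adjusted p = 0.572 and 0.392; with the block 0.303 and 0.138). The 10 epithelial markers, none of them a cadherin, summed to 146, 88.8 and 18.2 CPM in the positive and 164, 144 and 56.1 CPM in the negative libraries, with the same order of tumors within the groups. The part of epithelial RNA in the Cdh1 and Cdh3 values was not tested.

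Cdh2, which encodes the mesenchymal and neural N-cadherin, showed the opposite pattern in tumor 3. It measured 3.09, 7.66 and 10.1 CPM in positive libraries 1, 2 and 3 and 1.42, 2.19 and 18.3 CPM in negative libraries 1, 2 and 3. In tumors 1 and 2 the negative library was the lower, and in tumor 3 it was the higher. Its log2 fold change was -1.14 ± 0.81 (limma-voom adjusted p = 0.559), and with the block it was -0.15 (limma-voom adjusted p = 0.899). The block without tumor 3, a fit singled out after its values were seen, gave -1.61 (limma-voom adjusted p = 0.0147).

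Cdh13, which encodes the membrane-anchored T-cadherin that lacks a cytoplasmic domain, also differed most between tumors. Its values were 14.7, 8.48 and 41.6 CPM in the positive and 10.8, 14.2 and 61.6 CPM in the negative libraries 1, 2 and 3, so both libraries of tumor 3 were above all others. Cdh19, known from Schwann cells, measured 0.495, 0.211 and 2.64 CPM in the positive and 0.338, 0.376 and 7.64 CPM in the negative libraries, with tumor 3 highest in each group. The 8 Schwann cell markers summed to 34.1, 22.7 and 20.3 CPM in the positive and 31.5, 31.9 and 27.0 CPM in the negative libraries, and their part in the Cdh19 values was not tested. Cdh10 and Pcdh15, which did not pass the filter, had 144 and 300 counts in negative library 3 and between 0 and 27 counts in the others. Whether these values belong to that library or to its tumor cannot be told apart, since tumor 3 has 1 negative library.

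The endothelial cadherins were low. Cdh5, which encodes VE-cadherin, measured 1.61 and 0.644 CPM in positive libraries 1 and 2, had 0 counts in positive library 3, and measured 4.18, 1.51 and 0.220 CPM in negative libraries 1, 2 and 3. Pcdh12, a protocadherin of vascular endothelium, measured 4.08, 2.45 and 0.423 CPM in the positive and 8.22, 6.20 and 1.18 CPM in the negative libraries, but Rnf14 overlaps it with 15486 counts against its 1072. For Cdh5 and Pcdh12 tumor 1 was highest in each group. The 8 endothelial markers, of which Tek took the largest part in the positive libraries, summed to 94.7, 56.4 and 129 CPM in positive libraries 1, 2 and 3 and 31.1, 16.6 and 16.6 CPM in the negative ones, and their part in the Cdh5 and Pcdh12 values was not tested. Cdh17, the cadherin of liver and intestine, measured 6.43, 3.17 and 0.0705 CPM in the positive and 2.24, 1.70 and 0 CPM in the negative libraries 1, 2 and 3. Cdh26 measured 0.928, 0.363 and 0.0353 CPM in the positive and 1.10, 0.885 and 0.165 CPM in the negative libraries. Both overlapped between groups and neither passed in limma-voom with or without the block.

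Of the 27 members that were not tested, 11 were alpha protocadherins and 8 type II cadherins. Cdh8, Cdh12, Cdh20 and Pcdhb1 had no count in any library, which allows up to between 0.0346 and 0.185 CPM (3 counts per library). Cdh7 and Pcdh11x had counts only in positive libraries, with 15 counts for each in positive library 3.

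Clustered protocadherins were read as groups. The alpha, beta and gamma clusters lie side by side on chromosome 18, from 36930285 to 37841873 (GRCm38.p6). Per GENCODE annotation a median of 54.7% of the exonic bases of a gamma gene and 46.4% of those of an alpha gene belonged to it alone, against 100% for beta genes, which have a single exon. How reads in shared exons were assigned was not stated, so single alpha and gamma rows are uncertain. Together, the clusters took between 26.2% and 33.2% of the member counts of a library.

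The gamma cluster was the most abundant, and it was somewhat higher in CD34 negative CAFs without passing the test. Its summed level was 256, 238 and 263 CPM in positive libraries 1, 2 and 3 and 314, 285 and 346 CPM in negative libraries 1, 2 and 3. The groups did not overlap, and the ratio was 0.29, 0.26 and 0.40 on the log2 scale in tumors 1, 2 and 3. The log2 fold change of the sum was 0.31 ± 0.16 (SE, n = 3 per group; limma-voom adjusted p = 0.428, and 0.150 with the block). Of the 22 single genes, 7 had all negative above all positive libraries and 0 the reverse, against 10.4% and 10.0% of all genes, but the rows share exons and none passed.

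Pcdhgc3, a C-type gamma isoform that is expressed without the random choice made for most isoforms, took 45.6% to 52.7% of the gamma counts of a library. It measured 132, 118 and 139 CPM in the positive and 165, 142 and 158 CPM in the negative libraries 1, 2 and 3 (log2 fold change 0.25 ± 0.16, limma-voom adjusted p = 0.510). The groups were separate by a narrow margin. Pcdhgc5 measured 8.66, 16.7 and 9.98 CPM in the positive and 16.3, 22.9 and 19.2 CPM in the negative libraries, with overlap. Pcdhgb6 measured 17.1, 15.8 and 13.5 CPM in the positive and 14.1, 14.1 and 27.8 CPM in the negative libraries, so that only negative library 3 was above the positive ones. Pcdhgb4, chosen after its values were seen, had the largest fold change of the cluster (1.22 ± 0.46, limma-voom adjusted p = 0.290) at 1.61, 1.67 and 1.20 CPM in the positive and 3.83, 3.41 and 3.602 CPM in the negative libraries.

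The beta cluster rested on negative library 3 for its difference. Its sum was 141, 129 and 132 CPM in positive libraries 1, 2 and 3 and 142, 146 and 210 CPM in negative libraries 1, 2 and 3. Negative libraries 1 and 2 lay close to the positive ones. Its log2 fold change was 0.29 ± 0.19 (limma-voom adjusted p = 0.537) and was 0.10 without negative library 3. The most abundant isoform, Pcdhb17, measured 18.5, 17.2 and 20.2 CPM in the positive and 22.7, 23.5 and 48.9 CPM in the negative libraries (0.66 ± 0.33, limma-voom adjusted p = 0.398, and 0.0850 with the block). Pcdhb9 measured 15.9, 17.0 and 14.95 CPM in the positive and 16.5, 16.8 and 10.4 CPM in the negative libraries. Pcdhb5 measured 10.8, 15.04 and 17.2 CPM in the positive and 11.1, 15.2 and 28.7 CPM in the negative libraries. Of these 3 isoforms, Pcdhb17 and Pcdhb5 were highest and Pcdhb9 was lowest in negative library 3.

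The measured isoform shares were similar in 5 libraries and differed in negative library 3. That library also had counts for the fewest genes, 14314 from a total of 35310817 counts. A trait of the library and one of its tumor cannot be told apart here. Across the 22 beta isoforms, the Spearman correlation of isoform shares between libraries was 0.916 to 0.966 over the 10 pairs of the other libraries and 0.786 to 0.864 over the 5 pairs with negative library 3. Across the 22 gamma isoforms it was 0.840 to 0.932 and 0.577 to 0.745. These values describe libraries that share tumors and, for gamma, exons. In negative library 3 Pcdhb2 and Pcdhb8, chosen after their values were seen, were at 7.53 and 8.94 CPM against at most 1.98 and 3.91 in the others, while Pcdhb10 had 0 counts and Pcdhb6 0.0275 CPM. Isoform shares did not set the groups apart, since pairs across groups reached 0.962 for beta and 0.922 for gamma. Both of these pairs were positive and negative library 2, from the same tumor. Pairs across groups from different tumors reached 0.960 for beta and 0.910 for gamma.

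**Figure D4:**
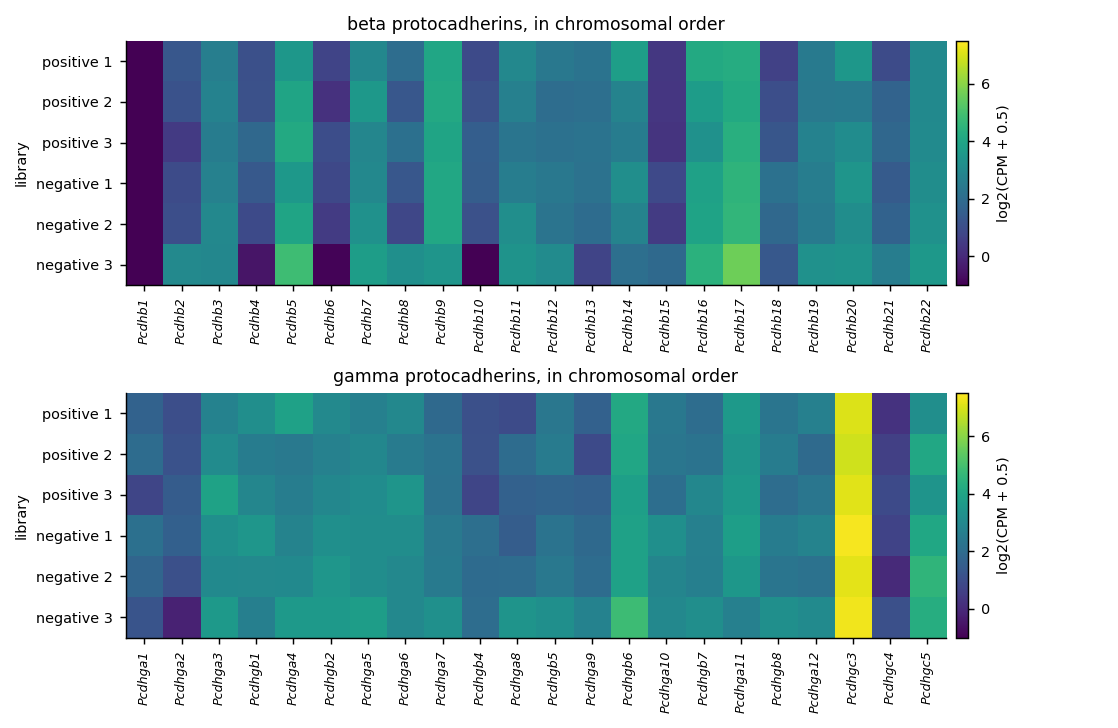
Level of each beta (top) and gamma (bottom) protocadherin, as color on a scale of log2(CPM + 0.5), with 1 row per library and isoforms in chromosomal order. The rows of 5 libraries look alike, Pcdhgc3 is the brightest column, and in negative library 3 Pcdhb10 is at 0 and Pcdhb17 at 48.9 CPM.

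The alpha cluster was hardly expressed, at 4.85 ± 3.05 CPM in the positive and 6.72 ± 1.21 CPM in the negative group (SD, n = 3; log2 fold change of the sum 0.20 ± 0.45, limma-voom adjusted p = 0.870). Pcdhac2, a C-type isoform, took most of its counts in 4 libraries and measured 1.48, 5.51 and 1.76 CPM in the positive and 1.81, 4.56 and 5.004 CPM in the negative libraries 1, 2 and 3. The groups overlapped. Pcdha8 measured 0.124, 1.11 and 0.599 CPM in the positive and 1.01, 1.22 and 1.13 CPM in the negative libraries. Pcdha10 measured 0.742, 0.924 and 0.106 CPM in the positive and 1.41, 1.26 and 0 CPM in the negative libraries. Both overlapped between groups. Negative library 3 had 0 counts for 11 of 14 alpha isoforms, against 2 to 8 in the others.

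Genes that act with cadherins were taken from 6 lists of 74 genes, of which 60 were tested. Without the block none of the 60 passed in limma-voom, where 14 had an unadjusted p under 0.05, against 14.3% of all genes. None passed in edgeR either, which called 9 genes in all, and DESeq2 called 3, against 660 of all genes. With the block 7 were higher and 1 lower in CD34 negative CAFs in limma-voom, beside the 4.32% and 4.25% of all genes given above. By list, 2 of 12 catenins and actin linkers were higher, 0 of 5 nectins were called, and 3 of 15 other cadherin superfamily genes were higher and 1 lower. Among genes of cadherin shedding and turnover 1 of 8 was higher, among cadherin-regulating transcription factors 1 of 8 was higher, and none of 12 clustered protocadherin regulators was called. The medians of the lists lay between -0.18 and 0.29 on the log2 scale.

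Among the catenins, Jup, which encodes the beta-catenin relative plakoglobin, measured 45.3, 33.6 and 16.0 CPM in positive libraries 1, 2 and 3 and 98.0, 101 and 84.5 CPM in negative libraries 1, 2 and 3. Every negative library was well above every positive library. The log2 fold change was 1.73 ± 0.31 (SE, n = 3 per group; limma-voom adjusted p = 0.0735, and 0.00247 with the block). Jup is also expressed by epithelia, whose 10 markers summed to 146, 88.8 and 18.2 CPM in the positive and 164, 144 and 56.1 CPM in the negative libraries, and their part in the Jup values was not tested. Plekha7, which links the junction to microtubules, measured 2.35, 4.35 and 0.705 CPM in the positive and 10.4, 14.8 and 5.47 CPM in the negative libraries (1.86 ± 0.71, limma-voom adjusted p = 0.295, and 0.0129 with the block). Plekha7 was lowest in tumor 3 in each group, as were the epithelial markers, whose part in its values was not tested. Ctnnb1, which encodes beta-catenin, lay between 405 and 505 CPM in all libraries with a log2 fold change of 0.03 ± 0.17.

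Of the wider superfamily, Fat1, a giant atypical cadherin, measured 492, 583 and 425 CPM in the positive and 616, 862 and 1026 CPM in the negative libraries 1, 2 and 3 (0.74 ± 0.23, limma-voom adjusted p = 0.214, and 0.0368 with the block). Dchs1, the ligand of Fat4, measured 96.9, 96.9 and 66.4 CPM in the positive and 173, 124 and 122 CPM in the negative libraries (0.69 ± 0.22, adjusted p = 0.0242 with the block in limma-voom). Clstn2, a calsyntenin, measured 6.37, 4.10 and 0.494 CPM in the positive and 19.7, 12.4 and 9.87 CPM in the negative libraries (2.35 ± 0.70, adjusted p = 0.0271 with the block in limma-voom). All 3 had groups that did not overlap. Ret, a receptor tyrosine kinase with cadherin-like repeats, went the other way, with 3.28, 8.25 and 13.5 CPM in the positive and 0.125, 0.664 and 0.0275 CPM in the negative libraries (-5.65 ± 1.49, adjusted p = 0.0313 with the block in limma-voom). Ret was lower in the negative library of each tumor, where it had only 7, 30 and 1 counts in tumors 1, 2 and 3, so the size of its fold change is uncertain.

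Snai1, a repressor of E-cadherin transcription, measured 12.1, 20.5 and 13.9 CPM in the positive and 32.7, 36.3 and 47.2 CPM in the negative libraries 1, 2 and 3. Its log2 fold change was 1.17 ± 0.26 (SE, n = 3 per group; limma-voom adjusted p = 0.107, and 0.0124 with the block), beside a Cdh1 that did not pass. Furin, the protease that removes the propeptide of cadherin precursors, measured 45.8, 73.6 and 67.2 CPM in the positive and 90.5, 105 and 86.6 CPM in the negative libraries (0.58 ± 0.21, adjusted p = 0.0488 with the block in limma-voom). In both genes all negative libraries were above all positive ones. Of these 8 partner genes Jup, Plekha7, Snai1 and Ret also passed with the block in edgeR. With the block in limma-voom and each tumor left out in turn, Jup and Snai1 passed in all 3 fits, Plekha7, Dchs1 and Fat1 in 2, and Clstn2, Ret and Furin in 1. Leaving out a library or tumor without the block moved the fold change of Plekha7 between 1.32 and 3.09 and that of Clstn2 between 1.64 and 3.53.

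Other partner genes with large fold changes in their lists did not pass in limma-voom over all 6 libraries, with or without the block. Nectin2, a junctional immunoglobulin protein, measured 21.3, 27.4 and 7.30 CPM in the positive and 43.7, 39.4 and 29.999 CPM in the negative libraries 1, 2 and 3 (1.05 ± 0.42). It passed with the block in DESeq2 (log2 fold change 1.18, adjusted p = 0.00440). Nectin2 was lowest in tumor 3 in each group, as were the epithelial markers, whose part in its values was not tested. Nectin1, of the same family, measured 25.4, 28.1 and 22.0 CPM in the positive and 36.9, 39.9 and 33.4 CPM in the negative libraries (0.52 ± 0.19). The transcription factor Twist2 measured 18.2, 13.9 and 14.4 CPM in the positive and 29.9, 20.1 and 24.2 CPM in the negative libraries (0.74 ± 0.24). All 3 had every negative library above every positive one. The sheddase gene Adam10 measured 70.1, 87.9 and 91.3 CPM in the positive and 54.8, 71.8 and 70.4 CPM in the negative libraries (-0.36 ± 0.19), with overlap. Smchd1, a chromatin gene known to silence clustered protocadherins, measured 45.5, 50.6 and 46.1 CPM in the positive and 37.7, 36.6 and 26.1 CPM in the negative libraries (-0.52 ± 0.20, limma-voom adjusted p = 0.295). Setdb1, another such gene, measured 43.4, 27.8 and 36.8 CPM in the positive and 22.1, 23.8 and 25.4 CPM in the negative libraries (-0.51 ± 0.22, limma-voom adjusted p = 0.334). In Smchd1 and Setdb1 the negative libraries were below the positive ones, but Cers2 overlaps Setdb1 with 24896 counts against its 7358.

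**Figure D5:**
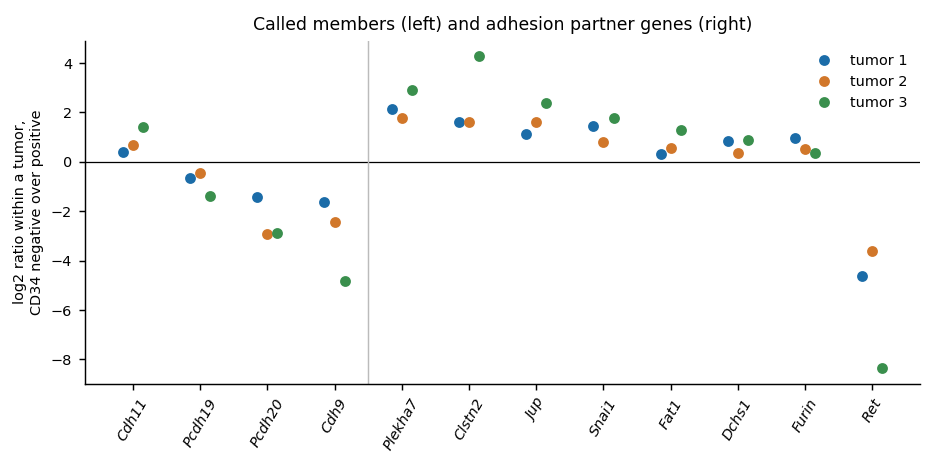
Log2 ratio of the CD34 negative to the CD34 positive library within each tumor, as 1 point per tumor, for the 4 called cadherin genes on the left and the 8 called partner genes on the right. For each gene the 3 points lie on the same side of 0, and those of tumor 3 reach 4.27 for Clstn2 and -8.35 for Ret. These ratios rest on 14 counts of Clstn2 in positive library 3 and 1 count of Ret in negative library 3.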

How the data were processed

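RNA-seq was performed on 6 libraries of sorted CAFs, with 3 libraries per group and group and tumor number taken from the sample titles. The deposited values are raw counts per NCBI gene, which the authors made by aligning reads to GRCm38/mm10 and counting with featureCounts of Rsubread, per the labels and the study's methods. Strand setting and the treatment of reads in shared exons were not stated. The low-count filter (filterByExpr, minimum count 10), TMM factors and limma-voom are steps named in the study's methods. Benjamini-Hochberg adjustment ran over 14855 genes (two-sided, 0.05). Of these, 292 had no gene symbol and were kept here, whereas the authors took such genes out. Fits ran in limma 3.58.1, DESeq2 1.42.0 and edgeR 4.0.16 under R 4.3.3. Positive log2 fold changes mean higher expression in CD34 negative CAFs.

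Libraries are paired by tumor, as each tumor gave a library of both fractions, and deviations from group means correlated at 0.373, 0.350 and 0.219 within tumors 1, 2 and 3. The study's methods state no tumor term, so the block is given beside the main values. The fit without the block called 18 genes in limma-voom. The paper reports far more genes as higher in CD34 negative CAFs, and the reason for this gap was not tested. Standard errors are those of the fit without the block, so they also hold the differences between tumors. Cluster sums replaced their rows before fitting. RPKM used the deposited gene length, and CPM of genes and clusters were divided by TMM factors, which lay between 0.941 and 1.04. Summed CPM of the cell type markers and the CPM limits for genes without counts were scaled to library totals only. Positions came from RefSeq by gene identifier for 93 of 93 members.

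Members, lists and tests were chosen with earlier results of these data known, including 7 cell type marker lists, given as sums; values of 2 marker genes are not reported here. Values per library are given for members called with or without the block, the 3 most abundant tested members of each class, 7 defining cadherins, and partner genes that were called or had one of the 2 largest fold changes in their list. Other named genes were chosen after their values were seen. Replicates are separate tumors; whether these came from separate mice was not stated. Alternatives covered normalization, filter, annotation, test, block, each library and each tumor. The tests were tested on simulated data.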

Additional observations from a re-analysis of the deposited data

How the results depend on the processing

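Calls depended on the tumor block and the test. Over all genes limma-voom called 18 without the block and 1273 with it. DESeq2 without the block called 660, and sample quality weights gave 161. Counts over all genes for the other fits of this paragraph are not given here. Among members, 0 calls became 4 with the replicate block, 1 with the block in edgeR, 4 with the block in DESeq2, 2 in DESeq2 without it (Pcdh20 and Cdh9) and 1 with sample quality weights (Pcdh20). Leaving out each library or tumor without the block kept 0 calls, and the block without tumors 1, 2 and 3 gave 3, 3 and 7. Among partner genes, 0 calls became 8, 4 and 12 in these 3 fits with the block, 3 in DESeq2 and 1 with quality weights, 0 to 1 when a library or tumor was left out, and 5, 5 and 11 with the block without tumors 1, 2 and 3. The alpha sum ranged from -0.11 to 1.13 when a library or tumor was left out and was -0.11 without positive library 3 and -0.03 without tumor 3, and the beta and gamma sums kept their sign under every alternative. Pcdh20, Pcdh19, Cdh9 and Cdh11 kept their direction in every fit. Other genes changed sign in some fits. With edgeR Pcdhac2, Pcdha10 and Cdh2 were 0.36, 0.59 and 0.062, and with DESeq2 0.35, 0.58 and 0.060. Pcdhac2 was 0.50 with limma-trend, 0.15 with the block, 0.50 with the block in edgeR and 0.48 with the block in DESeq2, and Pcdha10 was 0.35 with the block. Quality weights gave 0.041 for Pcdhac2, 1.11 for Pcdha10, 0.013 for Pcdhb9, -0.065 for Pcdhb5, -0.042 for Pcdhgb6, -0.30 for Cdh13, 0.22 for Cdh17 and -0.36 for Cdh19. When a library or tumor was left out, the range was -0.52 to 0.94 for Pcdhac2, -1.84 to 1.31 for Pcdha10, -0.28 to 0.041 for Pcdhb9, -0.19 to 0.47 for Pcdhb5, -0.21 to 0.37 for Pcdhgb6, -0.48 to 1.04 for Cdh13, -3.14 to 0.45 for Cdh17, -0.79 to 1.83 for Cdh19 and -0.32 to 0.037 for Pcdh18. With the block and without tumor 1 or 2, Pcdhac2 was 0.11 and 1.14 and Pcdha10 0.15 and 0.39, and without each tumor the range was -0.28 to 0.57 for Pcdha10, -1.61 to 0.63 for Cdh2 and -0.22 to 0.52 for Pcdhgb6. The causes were not tested. Of the 14 alpha isoforms 11 did not pass the filter on counts.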
